A study of Mus musculus with 8 samples.

Results

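The 9 genes described here, Vwf, Pf4, Itga2b, Itgb3, Gp9, Gp1bb, Ppbp, Treml1 and Cd9, are expressed in megakaryocytes and platelets and are used to mark the platelet bias of hematopoietic stem cells (HSCs). They were taken by symbol from a table of 50686 genes, and each symbol matched 1 gene. All 9 passed the filter on low counts that kept 16066 genes. The libraries come from HSCs of C57BL/6J mice, sorted from lineage-depleted bone marrow by CD150, CD48, Sca-1 and CD117, with 10000 cells in G0/1 phase per library. Size was read from forward scatter: the Small gate took the lowest 10% of HSCs, the Large gate the highest 10%, and the Medium gate those at the mean size ± 10%. The All libraries had no size gate. The labels of these groups name no transgene, treatment or deletion, and the age of the mice was not given in the sources used here. Each group had 2 libraries, numbered 1 and 2 in the sample titles. Whether different animals gave the 2 libraries is not in the labels, and p-values therefore measure no more than how these samples spread, which can be technical.

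Megakaryocytes are large marrow cells that shed platelets, the cell fragments that plug wounds. On platelets, the integrin made of Itga2b and Itgb3 binds fibrinogen, and the receptor complex that includes Gp9 and Gp1bb binds von Willebrand factor, the product of Vwf. Pf4 and Ppbp encode CXC chemokines stored in platelet alpha granules, Treml1 encodes an immunoreceptor of the same granules, and Cd9 encodes a tetraspanin of platelets and many other cells. Some HSCs already transcribe such genes, and HSCs that express Vwf are known for a bias toward platelet output.

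The libraries held between 13698362 (Small 2) and 16838448 (All 2) counts. Libraries differed with their replicate number: with the size group in the model, 3947 of 16066 genes (24.6%) passed edgeR's quasi-likelihood test at a Benjamini-Hochberg adjusted p of 0.05. Large 2 was at least as close to the libraries numbered 1 as to the others numbered 2, with correlations across genes of 0.940 to 0.946 and 0.908 to 0.944. The highest correlation with a library numbered 1 was 0.919 for Small 2, 0.924 for Medium 2 and 0.893 for All 2. Summed HSC identity genes had 1117 to 2295 CPM (read counts relative to library size, after edgeR's TMM scaling) in number 1 and 2408 to 4537 in number 2. Granulocyte and monocyte markers had 27207 to 65027 CPM in number 1 and 4208 to 25435 in number 2. The genes encoding the 4 sort antigens summed to 700 to 1556 CPM, most of it from Kit, at 513 to 1196. The sum hides that the 4 genes differed in direction between the numbers. Ly6a had 20.4 to 90.4 CPM in number 1 and 186 to 366 in number 2, and Cd48 had 67.4 to 159 and 12.0 to 105. Slamf1 had 7.58 to 22.6 CPM over all libraries.

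The regions upstream of 4 of the genes are shown. Pf4 and Ppbp were chosen because they lie 2371 bases apart on chromosome 5, encode related chemokines and had unlike values in the libraries described below, and Gp9 and Itga2b because they encode subunits of the receptors described with them. Of the 9 genes, 7 had an entry in RefSeq's promoter table for GRCm38.p6; Vwf and Itgb3 had none. Each run holds the 250 bases before the start site, and capitals mark GGAAG, the core recognised by ETS factors, and GATAA, a core recognised by GATA factors, on either strand.
Pf4, chr5:90772185-90772434, plus strand: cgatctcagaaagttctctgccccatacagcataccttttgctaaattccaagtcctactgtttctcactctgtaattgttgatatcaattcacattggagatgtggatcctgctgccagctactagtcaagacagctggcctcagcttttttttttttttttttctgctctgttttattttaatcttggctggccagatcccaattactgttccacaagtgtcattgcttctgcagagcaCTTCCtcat
Ppbp, chr5:90768268-90768517, plus strand: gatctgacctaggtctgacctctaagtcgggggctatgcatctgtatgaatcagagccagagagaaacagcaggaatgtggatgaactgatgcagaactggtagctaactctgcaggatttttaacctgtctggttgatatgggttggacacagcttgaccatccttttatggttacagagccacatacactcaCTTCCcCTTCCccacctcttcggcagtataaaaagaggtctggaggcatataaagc
Gp9, chr6:87777820-87778069, plus strand: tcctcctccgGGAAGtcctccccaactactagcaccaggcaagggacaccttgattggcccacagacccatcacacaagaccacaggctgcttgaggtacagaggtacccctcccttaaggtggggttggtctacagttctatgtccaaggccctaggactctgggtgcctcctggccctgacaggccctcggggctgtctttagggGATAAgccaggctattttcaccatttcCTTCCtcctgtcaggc
Itga2b, chr11:102469884-102470133, minus strand: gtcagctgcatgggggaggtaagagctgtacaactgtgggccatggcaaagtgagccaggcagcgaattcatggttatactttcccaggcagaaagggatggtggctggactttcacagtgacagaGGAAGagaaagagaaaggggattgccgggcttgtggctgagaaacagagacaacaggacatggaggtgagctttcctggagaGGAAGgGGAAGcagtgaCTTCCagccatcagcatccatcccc
GGAAG or its reverse complement CTTCC was found in all 7 windows, against 64.1% of the 32851 windows of that table, and GATAA or TTATC was found in 1 of 7, Gp9, against 22.6%. In the Pf4 window the match began 9 bases before the start site and in the Gp9 window 1 of 2 began 16 bases before it. The GATAA of Gp9 began 43 bases before the start site. No GATAA match overlapped a GGAAG match. The window of Itga2b lies almost wholly inside the span that GENCODE gives the gene. These matches describe letters only.

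In TPM, a unit that divides by transcript length and so lets genes be compared, the 9 genes spanned a wide range of levels. Pf4 was highest, with 161 to 756 TPM over the 8 libraries and a median of 333, and its mean exceeded that of 97.2% of tested genes. Cd9 followed with 155 to 364 TPM and Itga2b with 28.0 to 108. Gp9 had 12.5 to 37.8 TPM, Ppbp 11.2 to 27.4, Vwf 6.07 to 27.3, Itgb3 6.85 to 18.6, Treml1 2.46 to 18.7 and Gp1bb 2.19 to 11.5. The ranges of neighbours in this order overlapped, except that every Cd9 value lay above every Itga2b value. Of other platelet genes, picked after their values were seen, Tubb1, the platelet beta-tubulin, had 0.619 to 4.13 CPM, Gp6, the platelet collagen receptor, 0 to 0.723, and Gp1ba, the alpha chain of glycoprotein Ib, 2.36 to 11.4. A count of 3, taken as the floor, is 0.178 to 0.219 CPM before TMM scaling and covers counting error only.

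None of the 9 genes passed edgeR's test between any 2 size groups. In each of the 6 comparisons 0 of 9 genes passed, against 0% of all tested genes, and 0 of 9 had an unadjusted p under 0.05. The unadjusted p was under 0.05 for 506 genes (3.15%) in Large against Small, 301 (1.87%) in Large against Medium and 695 (4.33%) in Medium against Small. It was so for 637 (3.96%) in Small against All, 262 (1.63%) in Medium against All and 504 (3.14%) in Large against All. With DESeq2, with limma-voom, and with limma-trend applied to log2(TPM + 1), the count was also 0 of 9 in every comparison. The SE of the fold changes in Large against Small were 0.46 to 0.97 on the log2 scale, where a 2-fold difference is 1, so a missed threshold does not show that levels were alike. The edgeR model behind these SE held no term for the replicate number, so they include the spread between the numbers. With 2 libraries a group, an exact test of 2 against 2 cannot give a two-sided p under 0.333.

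The direction of the size difference turned with the replicate number. Within number 1, Large had less than Small for all 9 genes, as it did for 48% of all tested genes. Within number 2, Large had more for 8 of 9, as it did for 50.3% of all genes. The 8 genes that did both compare with 16.8% of all genes, and the exception was Ppbp, lower in Large within both numbers (31.2% of all genes). The median log2 difference of the 9 genes was -0.47 within number 1 and 0.95 within number 2, and -0.06 pooled, beside 0.02 for all tested genes. The pooled median was 0.80 without Small 1 and -0.47 without Small 2. Each within-number difference sets 1 library against 1 and has no replicate of its own. The same libraries of number 1 had higher summed erythroid markers (3904 to 5255 CPM over 14 genes, against 2052 to 2575), mostly Car1 and Car2. Their summed granulocyte and monocyte markers were higher too. By edgeR's test, 7 of 14 erythroid and 1 of 18 granulocyte and monocyte genes were higher in number 1 (12.1% of all genes). In the other direction, 1 and 0 passed (12.5%). The part of these markers in the result was not tested. Since the samples are bulk RNA, fewer cells of a type and less RNA per cell cannot be told apart.

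**Figure D1:**
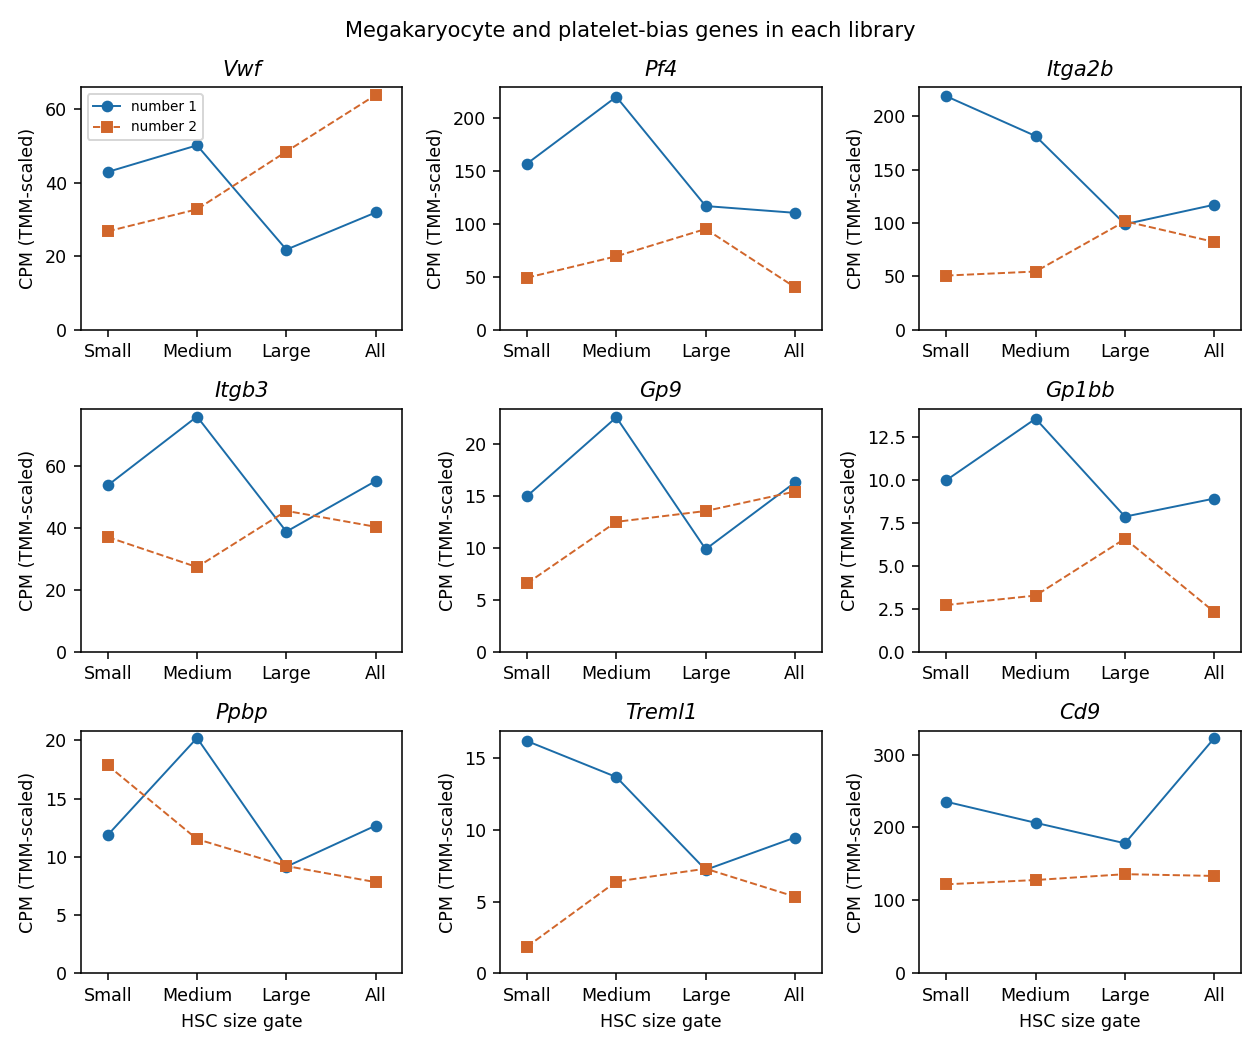
CPM (vertical axis, from 0) of each of the 9 genes in the 8 libraries by size gate (horizontal axis); circles joined by solid lines are the libraries numbered 1, squares joined by dashed lines those numbered 2, and each point is 1 library. The numbers approach each other in Large for most genes: Itga2b, for example, has 98.9 and 102 CPM there and 219 and 50.8 in Small.

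Of the adhesion receptors, both integrin subunits turned with the number. Itga2b (chromosome 11, 102453297 to 102470122) encodes integrin alpha-IIb, known as CD41. Itga2b had 219, 181, 98.9 and 117 CPM in the Small, Medium, Large and All libraries of number 1, and 50.8, 54.6, 102 and 82.2 CPM in those of number 2. Small 1 and Medium 1 were the high libraries, Small 2 and Medium 2 the low ones, and every pair of groups overlapped. Large against Small HSCs gave 100 ± 1.94 against 135 ± 119 CPM (SD, n = 2) and a fitted log2 fold change of -0.43 (SE 0.74; edgeR adjusted p = 0.975). Its partner Itgb3 (chromosome 11, 104608000 to 104670476) encodes integrin beta-3. Itgb3 had 53.7, 75.9, 38.7 and 55.1 CPM in the Small, Medium, Large and All libraries of number 1, and 37.0, 27.3, 45.4 and 40.3 CPM in those of number 2. Here too the groups overlapped, and number 1 lay above number 2 in Small, Medium and All but not in Large. Large against Small gave a log2 fold change of -0.11 (SE 0.48; edgeR adjusted p = 0.988). In TPM, Itga2b exceeded Itgb3 by a ratio of 3.03 to 4.82 in 7 libraries and 8.31 in Small 1.

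The von Willebrand receptor subunits Gp9 and Gp1bb did not have the same order of libraries. Gp9 (chromosome 6, 87778072 to 87779768) encodes platelet glycoprotein IX. Gp9 had 15.0, 22.6, 9.86 and 16.3 CPM in the Small, Medium, Large and All libraries of number 1, and 6.57, 12.5, 13.5 and 15.4 CPM in those of number 2. Both Large libraries and both Small libraries lay below both All libraries, which held for 16.2% and 14.8% of all genes. Gp1bb (chromosome 16, 18620317 to 18622403) encodes the beta chain of glycoprotein Ib. Gp1bb had 9.98, 13.6, 7.86 and 8.92 CPM in the Small, Medium, Large and All libraries of number 1, and 2.71, 3.26, 6.58 and 2.31 CPM in those of number 2. It was lowest in All 2 and Small 2, whereas Gp9 in All 2 was close to its level in All 1. The TPM ratio of Gp9 to Gp1bb was 2.31 to 3.51 in the libraries numbered 1 and 3.80 to 13.1 in those numbered 2, without overlap. Large against Small gave log2 fold changes of 0.12 (SE 0.51; edgeR adjusted p = 0.987) for Gp9 and 0.18 (SE 0.97; adjusted p = 0.992) for Gp1bb. Gp1bb shares 1902 bases with Sept5 on the same strand, which had 1.23 to 9.27 CPM, so the split of reads between them is uncertain.

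The granule chemokines Pf4 and Ppbp, although neighbours on chromosome 5, differed in pattern. Pf4 (90772435 to 90773383) encodes platelet factor 4. Pf4 had 157, 220, 117 and 111 CPM in the Small, Medium, Large and All libraries of number 1, and 49.3, 69.5, 95.4 and 40.2 CPM in those of number 2. All 4 libraries numbered 1 lay above all 4 numbered 2, and Medium 1 was highest. Pf4 in Large against Small had 106 ± 15.3 and 103 ± 76.2 CPM (SD, n = 2), a log2 fold change of 0.04 (SE 0.75; edgeR adjusted p = 0.999). Ppbp (90768518 to 90770063) encodes pro-platelet basic protein. Ppbp had 11.9, 20.2, 9.15 and 12.7 CPM in the Small, Medium, Large and All libraries of number 1, and 17.9, 11.5, 9.21 and 7.82 CPM in those of number 2. Ppbp was the only one of the 9 whose Large libraries both lay below both Small ones, which held for 14.7% of all genes, and below both Medium libraries, which held for 17.2%. Its log2 fold changes were -0.69 (SE 0.46; unadjusted p = 0.178, edgeR adjusted p = 0.975) against Small and -0.79 (SE 0.46; unadjusted p = 0.134, adjusted p = 0.989) against Medium, and these comparisons share the Large libraries. The fold change against Small was -0.37 without Small 2 and -0.96 without Small 1. The TPM ratio of Pf4 to Ppbp ran from 7.05 in Small 2 to 33.7 in Small 1.

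Treml1 (chromosome 17, 48359916 to 48367176) had the widest range of the 9 genes, 8.73-fold between its highest and lowest library in CPM. Treml1 had 16.2, 13.7, 7.22 and 9.47 CPM in the Small, Medium, Large and All libraries of number 1, and 1.86, 6.40, 7.30 and 5.35 CPM in those of number 2. The extremes were the 2 Small libraries, at 250 counts (exact Poisson 95% interval 220 to 283) and 26 counts (17.0 to 38.1), intervals that cover counting error only. The fitted log2 fold change in Large against Small was -0.32 (SE 0.93, edgeR adjusted p = 0.981), with group means of 7.26 and 9.03 CPM. The differences in log2 CPM, -1.15 within number 1 and 1.90 within number 2, leaned the other way, so the sign depends on the measure. Cd9 (chromosome 6, 125460266 to 125494791) had 235, 206, 178 and 323 CPM in the Small, Medium, Large and All libraries of number 1, and 122, 128, 136 and 134 CPM in those of number 2. Its 4 libraries numbered 2 were nearly level, at 122 to 136 CPM, and all lay below those numbered 1. Its log2 fold change in Large against Small was -0.19 (SE 0.50; edgeR adjusted p = 0.981).

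Vwf (chromosome 6, 125546774 to 125686679), a marker of platelet-biased HSCs, had the same turn between the numbers in Large against Small as 7 of the other genes, but was not higher in number 1 as a whole. Vwf had 42.9, 50.2, 21.8 and 31.9 CPM in the Small, Medium, Large and All libraries of number 1, and 26.8, 32.8, 48.5 and 63.8 CPM in those of number 2. Number 1 was higher in Small and Medium, number 2 was higher in Large and All, and no pair of groups separated. Vwf in Large against Small had 35.1 ± 18.9 and 34.8 ± 11.4 CPM (SD, n = 2), a fitted log2 fold change of 0.01 (SE 0.52, edgeR adjusted p = 1). The differences in log2 CPM were -0.97 within number 1 and 0.85 within number 2. Endothelial cells also express Vwf. The 16 endothelial and stromal genes were mixed in level. Cdh5 was near the floor, at 0 to 1.17 CPM, whereas Egfl7 had 35.2 to 144 CPM, Pecam1 37.9 to 94.8 and Tie1 26.1 to 112. Other low genes were Kdr, at 0.957 to 8.38 CPM, Flt1, at 0 to 4.43, and Cldn5, at 0.324 to 2.48. Emcn had 4.00 to 49.7 CPM and Cxcl12 20.7 to 90.5. The 16 genes summed to 200 to 339 CPM in number 1 and 361 to 453 in number 2. Their part in the result was not tested.

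The deposited TPM values placed Vwf differently from the counts. Vwf had 9.99, 20.1, 6.07 and 7.45 TPM in the Small, Medium, Large and All libraries of number 1, and 6.14, 7.98, 12.5 and 27.3 TPM in those of number 2. Medium 1 and All 2 thus stood further above the other libraries in TPM than in CPM. Counts per TPM, scaled between libraries and set to 1 in the highest library (Small 2), were 0.505 in Medium 1, 0.527 in All 2 and 0.656 to 0.859 in the other 5. For Itgb3, Gp9, Ppbp, Treml1 and Cd9 this ratio stayed between 0.955 and 1. It was 0.923 to 1 for Pf4, 0.862 to 1 for Itga2b and 0.862 to 1 for Gp1bb. TPM divides by the length of the transcripts to which reads were assigned, and the reason for the difference in Vwf was not tested.

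**Figure D2:**
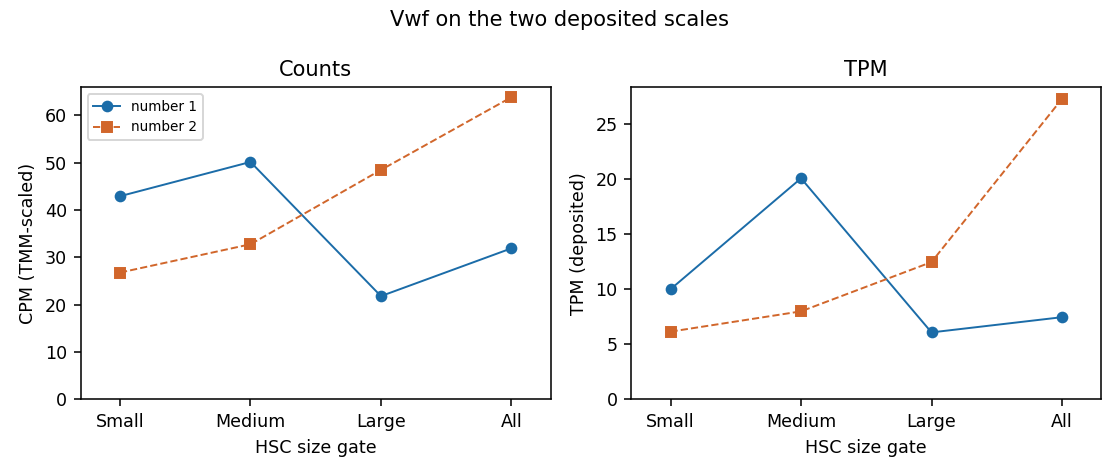
Vwf in the 8 libraries by size gate, as TMM-scaled CPM from the counts (left) and as deposited TPM (right), both from 0; circles with solid lines are number 1 and squares with dashed lines number 2, and each point is 1 library. Medium 1 has 50.2 CPM and 20.1 TPM, and Large 2, at a similar 48.5 CPM, has 12.5 TPM.

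Large against Medium HSCs showed the same turn as Large against Small, and both comparisons share the Large libraries. Within number 1 all 9 genes were lower in Large (49.4% of all genes), with differences of -1.20 for Vwf to -0.21 for Cd9. Within number 2, 8 of 9 were higher (49.3% of all genes), from 0.09 for Cd9 to 0.98 for Gp1bb, and Ppbp, at -0.32, was lower within both numbers (33.3% of all genes). The pooled median was -0.23. In Medium against Small the medians were 0.44 within number 1 and 0.26 within number 2. Vwf, Pf4, Gp9 and Gp1bb were higher in Medium within both numbers, 4 of 9 against 30.1% of all genes. Of these, Pf4 was higher by 0.49 and 0.50 within numbers 1 and 2 and Gp9 by 0.59 and 0.91. None of the 9 had both Medium libraries above both Small libraries (16.6% of all genes), since Small 1 lay above Medium 2 for every one of the 4.

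**Figure D3:**
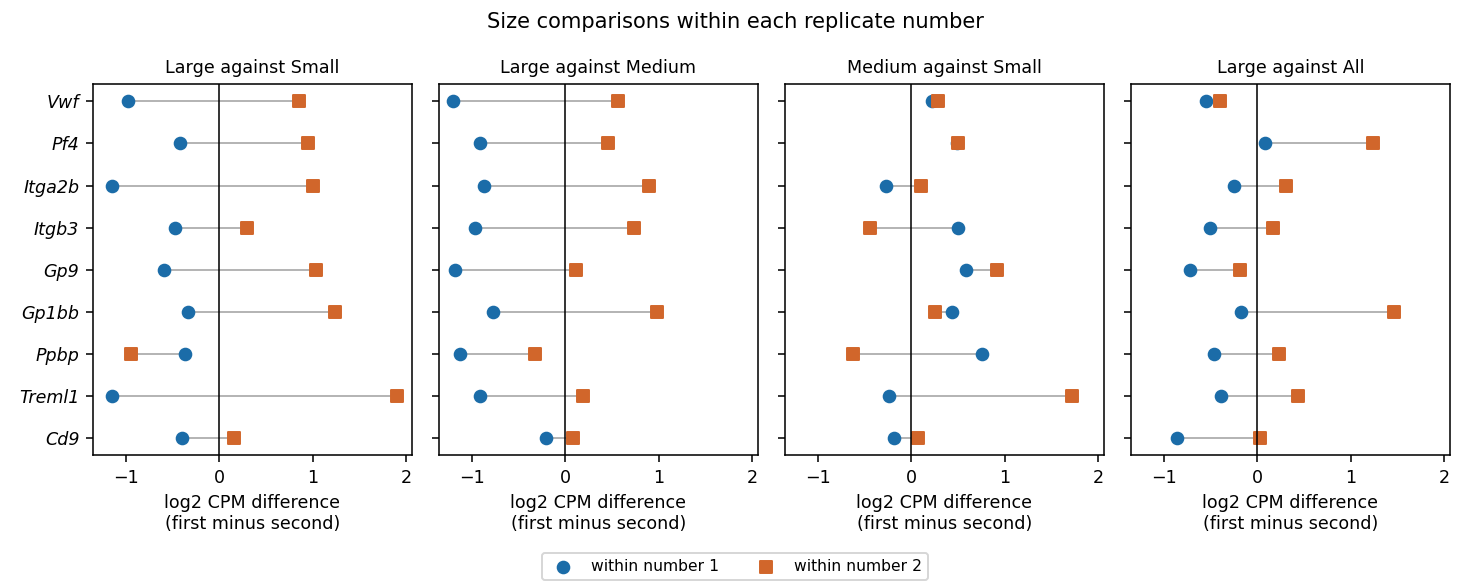
Differences in log2 CPM (horizontal axis) of the 9 genes (rows) in 4 comparisons of size groups, within number 1 (circles) and within number 2 (squares), joined by grey lines; each point sets 1 library against 1. In Large against Small the circles lie left of 0 for 9 genes and the squares right of 0 for 8.

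Against unfractionated HSCs the 9 genes gave no common direction. In Large against All the median was -0.46 within number 1 and 0.23 within number 2, with 8 of 9 lower within number 1 (50.7% of all genes) and 7 of 9 higher within number 2 (49.4%). Pf4 was higher in Large within both numbers, by 0.08 and 1.24 (31.6% of all genes), and Gp9 and Vwf were lower within both (33%). In Medium against All, 4 of 9 were higher within both numbers (25% of all genes), namely Pf4, Gp1bb, Ppbp and Treml1, and Cd9, at -0.64 and -0.06, was lower within both (24.9%). In Small against All, Pf4 and Gp1bb were higher within both numbers, 2 of 9 against 27.8% of all genes, and Itgb3, Gp9 and Cd9 were lower, 3 of 9 against 31.3%. The share of all counts taken by the 9 genes was 0.0738%, 0.0841%, 0.0452% and 0.0667% in the Small, Medium, Large and All libraries of number 1, and 0.0322%, 0.0357%, 0.0452% and 0.0413% in those of number 2. By this measure Large was the only group whose libraries had nearly the same value.

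The libraries of number 1 were next compared with those of number 2, a comparison chosen after these values were seen. The 4 libraries of a number are 1 from each size group, and the labels do not say what a number marks. The SD and p-values here and for the lists below therefore do not show how repeats of a number would spread. With the size group in the model, Pf4, Gp1bb and Cd9 were higher in number 1 and 0 of 9 were lower, against 12.1% and 12.5% of all tested genes. Pf4 had 151 ± 50.4 CPM in number 1 and 63.6 ± 24.5 in number 2 (SD, n = 4), a log2 fold change of 1.28 (SE 0.24; edgeR adjusted p = 0.0107). Gp1bb gave 1.54 (SE 0.40; edgeR adjusted p = 0.0257) and Cd9 0.83 (SE 0.14; edgeR adjusted p = 0.00512). These were also the 3 of 9 genes with all 4 libraries of number 1 above all 4 of number 2, against 9.19% of all genes. Itga2b (1.08, SE 0.42), Treml1 (1.20, SE 0.49), Itgb3 (0.56), Gp9 (0.41), Ppbp (0.23) and Vwf (-0.21) did not pass, with edgeR adjusted p from 0.119 to 0.731. The 2 libraries of a group differed least in Large for 7 of the 9 genes, and for 29.7% of all tested genes. More of the 9 passed without either Large library and fewer without any other library, while the number of all tested genes that passed fell in every such fit.

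Other genes of the lineage, from lists that hold the named roles, did not share 1 direction between the numbers. The counts that follow stand beside 12.1% of all tested genes higher in number 1 and 12.5% lower. Of 17 megakaryocyte transcription factors tested, 2 were higher in number 1, a share near that of all genes, and 5 lower. Gata1, the zinc finger factor that drives megakaryocyte and erythroid genes, had 92.6 to 161 CPM in number 1 and 13.1 to 37.9 in number 2 (log2 2.51, SE 0.17; edgeR adjusted p = 0.000166). Gfi1b, a repressor of the same lineages, had 81.1 to 110 and 20.1 to 30.8 CPM (log2 1.96, SE 0.16; edgeR adjusted p = 0.000376). The 5 lower ones were Ldb1, Etv6, Erg, Meis1 and Mef2c, and Meis1 had 213 ± 80.0 and 334 ± 79.3 CPM (SD, n = 4). Nfe2, the most abundant of the list in TPM, did not pass (log2 0.10, SE 0.09).

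Among 22 platelet receptor genes tested, 5 were higher in number 1 and 3 lower, beside 12.1% and 12.5% of all genes; the share that was lower is near that of all genes. The 5 higher ones were Gp5, which encodes glycoprotein V of the von Willebrand receptor, P2ry1, an ADP receptor, the thrombin receptor genes F2r and F2rl2, and the tetraspanin gene Cd63. Gp5 had 16.9 to 26.2 CPM in number 1 and 1.79 to 7.82 in number 2 (log2 2.09, SE 0.38; edgeR adjusted p = 0.0064). Esam and Jam3, which encode adhesion molecules, were among the 3 lower ones. Esam had 52.1 ± 21.8 CPM in number 1 and 81.7 ± 17.3 in number 2 (SD, n = 4), a log2 fold change of -0.73 (SE 0.16; edgeR adjusted p = 0.0138). Selp, which encodes P-selectin of platelet granules, did not pass (log2 -0.08, SE 0.24), nor did Fcer1g (log2 1.00, SE 0.30; edgeR adjusted p = 0.0615).

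The 18 granule genes held 2 that were higher in number 1, F5 (coagulation factor V) and Serpine2, and 2 that were lower, Nbeal2 and Slc35d3, which are shares near the 12.1% and 12.5% of all genes. Srgn, a granule proteoglycan and the most abundant of them, had 1383 ± 259 and 1472 ± 120 CPM (SD, n = 4) and did not pass (log2 -0.10), and neither did F13a1 (log2 1.34, SE 0.61). Of 24 signalling and cytoskeleton genes 0 were higher (12.1% of all genes) and 8 lower (12.5%), among them Plek, the platelet protein pleckstrin (log2 -1.32, SE 0.14; edgeR adjusted p = 0.000896), and Bin2 (log2 -0.49, SE 0.11). Rap1b, a small GTPase of integrin activation, did not pass (log2 0.35, SE 0.12). Of 13 thrombopoietin signalling genes 0 were higher (12.1% of all genes) and 7 lower (12.5%), with Stat3 at -0.74 (SE 0.08) and the feedback genes Cish, Socs1 and Socs3 among them. Between size groups, none of the genes of these 5 lists passed edgeR in any of the 6 comparisons. At most 3 of a list had an unadjusted edgeR p under 0.05 in 1 direction. In Large against Small, 3 of 24 signalling and cytoskeleton genes (median -0.51) and 3 of 17 transcription factors (median -0.32) were so, lower in Large. Of 13 thrombopoietin signalling genes (median -0.56) 1 was. Of all genes, 3.15% had such a p in either direction. In Medium against Small, 3 of the 24 signalling and cytoskeleton genes were lower in Medium and 1 was higher (median -0.13). The share of all genes there was 4.33% in either direction.

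**Figure D4:**
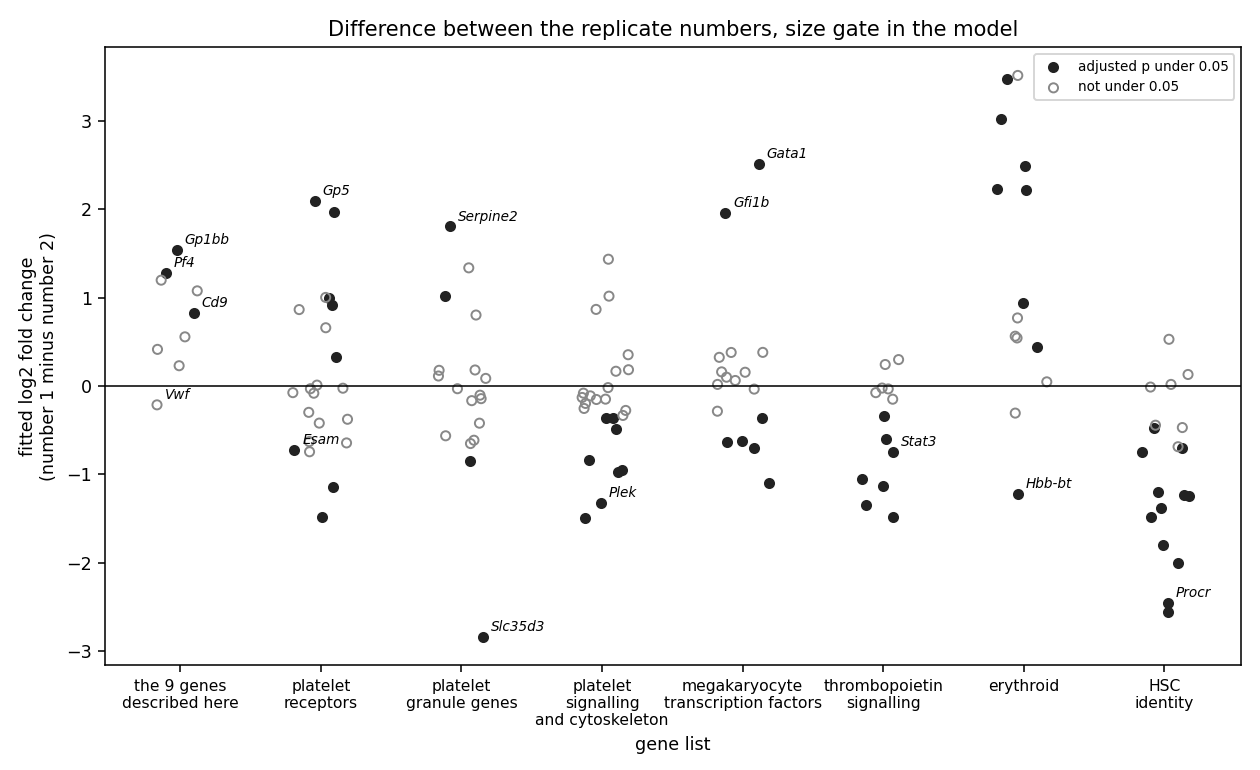
Fitted log2 fold change of number 1 minus number 2 (vertical axis, size gate in the model) for tested genes of 8 lists (horizontal axis, points spread sideways for legibility); filled points passed an adjusted p of 0.05 and open points did not, and each point is 1 gene over 8 libraries. Gata1 at 2.51 and Gfi1b at 1.96 lie above 0 with Pf4 and Gp1bb, while Esam lies at -0.73 and Stat3 at -0.74.

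Correlations among the 9 genes across the 8 libraries are given as a description, since all values share library, depth and replicate number. Pearson correlations of log2 CPM between Pf4 and Gp1bb were 0.98, between Itga2b and Treml1 0.88 and between Itga2b and Itgb3 0.84. Vwf had a median correlation of 0.16 with the other 8 genes, from -0.16 with Ppbp to 0.68 with Gp9, and Ppbp also had a median of 0.16. With each gene's mean over the libraries of a number subtracted, Vwf had correlations of 0.87 with Itga2b, 0.87 with Gp9, 0.74 with Itgb3 and 0.72 with Treml1, and Pf4 and Gp1bb had 0.92. On that scale Cd9 had correlations of -0.16 to 0.35 and Ppbp of -0.32 to 0.37 with the other genes, so which genes stand apart depends on whether the number is removed. With the number left in, of 10167 named genes with a mean of at least 5 CPM, the 3 most like Pf4 were Gp1bb (0.98), Lpl (0.97) and Pde5a (0.96). Those most like Vwf were Ric1 (0.92), Cd38 (0.87) and Tcf15 (0.87), and those most like Itga2b were Sprtn (0.97), Unc119 (0.96) and Akap1 (0.95). Tcf15, like Vwf, was highest in All 2, at 15.4 CPM against 2.29 to 6.88 in the other libraries.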

How the data were processed

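RNA was measured in 8 HSC libraries, 2 each of Small, Medium, Large and All; the sample titles give the group and the replicate number. RSEM 1.3.0, STAR 2.5.3a, SAMtools 1.3 and the build mm10 are named, per the submitters' processing notes; for the annotation release and strand use, nothing is given in the sources used here. Per gene, the authors deposited estimated counts, as whole numbers that were not scaled to each other, and log2(TPM + 1) values whose TPM have nearly the same sum in every library. Of 50686 gene IDs, 50376 matched a symbol in GENCODE M21 (GRCm38, the assembly of mm10), from which gene coordinates come; the others took up to 0.131% of the counts of a library. Libraries from treated mice were not analysed here.

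Size groups were compared by the quasi-likelihood test of edgeR 4.0.16 in R 4.3.3, with TMM scaling of the counts, filterByExpr (minimum count 10), robust estimation and no term but group, which leaves 4 residual degrees of freedom; p-values are two-sided, adjusted by the Benjamini-Hochberg method over 16066 genes, with a threshold of 0.05. The SE of a fold change was taken from its F statistic. Within-number differences and medians use log2 CPM with a prior count of 2. The replicate number was compared in a model with group and number. Alternatives used DESeq2 1.42.0, limma 3.58.1, other scalings and filters, the replicate number as a block, and each library left out. The edgeR step was tested on simulated data. Same-numbered libraries deviated together from their group means (correlation 0.358 to 0.439 in the 6 pairs of groups), but the labels do not say what a number marks and each comparison has only 2 pairs, so the number was not a term of the main test. The 9 genes and the gene lists were chosen with earlier results of these data known. Genes were named by a rule: all 9 genes, the 2 members of each other list with the highest mean TPM and any that passed between size groups (none did), and the 3 genes most like Vwf, Pf4 and Itga2b; other list genes named were chosen after their values were seen, and some values under this rule are not reported here. Lists of other blood cell types (erythroid; granulocytes with monocytes; macrophages with dendritic cells; B; T with NK; mast cells, basophils and eosinophils) and of endothelial and stromal cells were summed per library.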

Additional observations from a re-analysis of the deposited data

Results flagged for a closer look

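For most of the 9 genes, replicate numbers 1 and 2 gave opposite directions for Large against Small and for Large against Medium HSCs. In both comparisons 9 of 9 were lower in Large within number 1 and 8 of 9 were higher within number 2. Of all tested genes, 48% and 49.4% were lower within number 1, and 50.3% and 49.3% were higher within number 2. Each number holds 1 library per group, so whether the size difference depends on the number was not tested.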

How the results depend on the processing

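With 2 libraries a group, precision is limited by the spread between libraries more than by depth, and no alternative called any of the 9 genes between size groups. Counts of genes called are given for Large against Small, Large against Medium, Medium against Small, Small against All, Medium against All and Large against All in this order, beside 0 in each with edgeR. DESeq2 called 10, 2, 43, 19, 6 and 8, and edgeR with no filter on low counts 55, 58, 73, 69, 48 and 121. limma-trend on log2(TPM + 1) called 1 gene in each of the comparisons of Large with Small, Medium and All. With the replicate number as a block, edgeR called 0 in each, DESeq2 1417, 923, 518, 369, 12 and 1622, and limma-voom 205 in Large against Small and 117 in Large against All. The blocks with DESeq2 and limma-voom, and the number comparison with all its settings, were added after the data were seen.

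In Large against Small, the log2 fold change of Vwf turned to -0.0050 with DESeq2 and with its size factors, -0.055 with limma-voom, -0.010 with no filter and -0.012 with at least 1 CPM in all 8 libraries. With the block it was -0.050 in edgeR, -0.065 in DESeq2 and -0.0075 in limma-voom. That of Treml1 turned to 0.35 with limma-voom and 0.12 on log2(TPM + 1), and with the block to 0.19 in edgeR and 0.20 in DESeq2. Without 1 library it ranged from -0.68 to 0.48 for Vwf, -0.56 to 1.11 for Pf4, -1.12 to 0.98 for Itga2b, -0.35 to 0.19 for Itgb3, -0.35 to 0.83 for Gp9, -0.47 to 1.41 for Gp1bb, -1.16 to 1.96 for Treml1 and -0.58 to 0.37 for Cd9. For these genes except Vwf the ends of the range came from leaving out Small 2 and Small 1, and for Vwf from Large 2 and Large 1. For Ppbp it ranged from -0.96 to -0.37, from leaving out the same libraries. The median of the 9 genes ranged from -0.47 to 0.80 in Large against Small, -0.94 to 0.29 in Large against Medium, -0.38 to 0.25 in Large against All, -0.35 to 0.97 in Medium against Small, -0.75 to 0.39 in Small against All and -0.46 to 0.94 in Medium against All. The cause was not tested.

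Between the numbers, 1935 genes were called with no size group in the model, and 1947 to 3157 without 1 library, beside 3947. Of the 9 genes 1 to 5 were called without 1 library, and the fold change of Vwf ranged from -0.52 to 0.11. Pf4 had an edgeR adjusted p of 0.0506 with no filter.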

Other observations

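Summed markers of other blood cells, which belong to no comparison of the 9 genes, also varied with the number, without a test of the sums. Macrophage and dendritic genes (14) summed to 275 to 599 CPM in number 1 and 1234 to 1694 in number 2. Of these, Flt3 alone had 27.8 to 62.8 and 387 to 763 CPM, and Cd74 33.0 to 178 and 360 to 599. By edgeR's test 4 of the 14 were lower in number 1 (12.5% of all genes), namely Flt3, Cd74, H2-Aa and H2-Ab1. The macrophage gene Vcam1 was the 1 that was higher (12.1% of all genes), with 98.5 ± 24.5 and 46.5 ± 29.3 CPM (SD, n = 4). The sum thus does not stand for all genes of the list. T and NK cell genes (12) summed to 411 to 984 and 106 to 437 CPM, of which Nkg7 alone had 382 to 970 and 53.1 to 348. Of 11 tested, 1 was higher in number 1 and 2 were lower, beside 12.1% and 12.5% of all genes. Mast cell, basophil and eosinophil genes (12, of which 2 had 0 counts in every library) summed to 860 to 2321 and 208 to 1260 CPM. B cell genes (12) summed to 292 to 2153 CPM in number 1 and 319 to 5906 in number 2, with Large 2 highest. Of 14 erythroid genes 7 were higher in number 1 (12.1% of all genes), while the hemoglobin gene Hbb-bt was lower (log2 -1.22, SE 0.18; edgeR adjusted p = 0.00262), although reads of Hbb-bt and its near-identical copy Hbb-bs cannot be told apart with certainty. Of 19 HSC identity genes 0 were higher in number 1 and 12 lower (12.5% of all genes).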
